A study of Rattus norvegicus with 12 samples.

Results

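Mitochondrial DNA (mtDNA) carries its own small set of respiratory chain genes, and the 10 of them described here encode subunits of complexes I, III and IV and of ATP synthase, which is complex V. They were taken by symbol from the deposited count table, in which each of the 10 had 1 row among 30562. All 10 passed the filter on low counts (above 10 CPM, the count scaled to a common library size, in at least 1 library), as did 8938 rows in all. The table holds 13 mtDNA protein genes, and Mt-nd3, Mt-nd4l and Mt-atp8, which were not among the 10, are given beside them.

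The libraries were bulk RNA-seq of primary oligodendrocyte precursor cells (OPCs), grown ex vivo from the cerebral cortex of wild-type Sprague-Dawley rat pups at postnatal day 1 or 2. OPCs kept at an inspired oxygen fraction (FiO2) of 5% (mild-hypo-OPCs, 6 libraries) were compared with OPCs in room air (standard OPCs, 6 libraries), in a study of how mild hypoxia acts on OPC maturation. The labels give 6 hours at 5% oxygen, whereas the methods of the study give 6 days, and the exposure behind these libraries could not be settled. The labels do not tie the libraries to separate cultures and the study's legend gives 3 replicates per group, so p-values measure the spread between these libraries, some of which may share a culture.

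Standard OPC libraries held 1356079 to 2797513 counts each and mild-hypo-OPC libraries 4111669 to 9022324, so depth moved with the condition. Rows of ribosomal RNA took 23.9% to 38.4% of the standard OPC counts and 17.4% to 25.2% of the mild-hypo-OPC counts. All 10 OPC and oligodendrocyte markers were detected, with a summed level of 16263 to 19478 CPM of the library total under mild hypoxia against 8904 to 13760 in room air. Astrocyte markers (8 genes) summed to 939 to 1095 against 607 to 760.0 CPM, microglia markers (10 genes) to 69.7 to 98.7 against 19.2 to 50.4, neuron markers (8 genes) to 311 to 349 against 159 to 216, and mesenchymal and endothelial markers (9 genes, with Lum and Cdh5 at 0 in every library) to 1.21 to 3.69 against 0 to 1.80. On this scale most genes were higher under mild hypoxia, as given below. With TMM scaling (explained below), 7.00% of all genes tested were called higher. Among the markers, 4 of 10 tested for OPCs were called higher (median log2 fold change 0.23) and 2 of 6 for astrocytes (0.10). So were 3 of 5 microglia markers (0.61) and 1 of 6 neuron markers (0.58). Their part in the results was not tested, and in bulk RNA fewer cells of a type cannot be told apart from less RNA per cell.

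The respiratory chain passes electrons from NADH and succinate to oxygen while pumping protons, and ATP synthase uses the proton gradient to make ATP. Oxygen is the final electron acceptor, at complex IV (cytochrome c oxidase). The mtDNA genes are transcribed inside the organelle as long polycistronic RNAs that are cut into single messages, while most subunits are encoded in the nucleus, made in the cytosol and imported, so that complexes I, III, IV and V are each built from products of both genomes. Complex II is wholly nuclear.

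With trimmed mean of M values (TMM) scaling, which sets most genes level between groups, 3 of the 10 mtDNA genes were lower in mild-hypo-OPCs and 0 were higher. Mt-co2 and Mt-co3 of complex IV fell by 0.28 and 0.32 on the log2 scale, and Mt-nd6 of complex I fell by 1.46. The edgeR quasi-likelihood test with Benjamini-Hochberg adjustment called 17.0% of all genes tested lower and 7.00% higher, which is the background for these counts. The median log2 fold change of the 10 genes was -0.05, beside -0.0031 for all 8938 genes. None of the 10 was higher at an unadjusted p under 0.05 either, and limma-voom and DESeq2 each called 0 higher. In no gene of the 10 did the ranges of the 2 groups separate, whereas 2.94% of all genes had every mild-hypo-OPC library above every standard OPC library and 5.40% had every one below.

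The direction of these small differences depended on the scaling. When libraries were scaled by their totals alone, the median of all genes moved to 0.43 and that of the 10 genes to 0.38, so the mtDNA genes again lay near the middle of all genes. The ranges of all 10 overlapped here too, although 32.5% of all genes had every mild-hypo-OPC library above every standard OPC library on this scale and 0.134% had every one below. By the test, 7 of the 10 were called higher (61.7% of all genes were) and 1, Mt-nd6, lower (4.53% of all genes). Mt-co2 and Mt-co3 then had values of 0.15 and 0.12, with adjusted p = 0.215 and 0.342. With TMM factors set without the mtDNA rows, Mt-co3 was called lower (-0.29, adjusted p = 0.0302) and Mt-co2 was not (-0.25, adjusted p = 0.0639), and with upper-quartile factors neither was called (adjusted p = 0.0568 and 0.116).

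**Figure D1:**
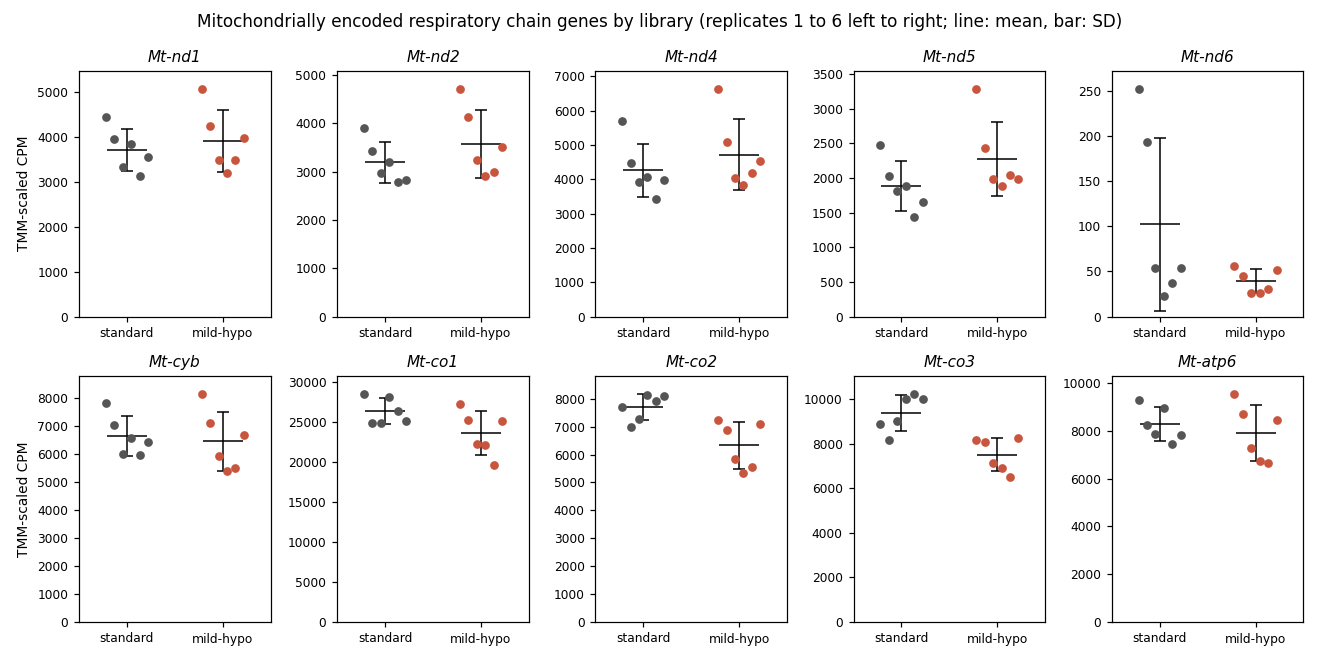
TMM-scaled CPM (vertical axis, from 0, one scale per gene) of the 10 mtDNA genes in each library, with standard OPCs in grey and mild-hypo-OPCs in red; points are replicates 1 to 6 from left to right, and lines with bars are means ± SD (n = 6). The groups overlap in every gene, and in Mt-nd6 standard OPC replicates 1 and 2 (252 and 194) lie above the other 10 libraries.

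Complex I, which takes electrons from NADH, contributed 5 of the 10 genes. Mt-nd1 (ENSRNOG00000030644), a membrane-arm subunit near the quinone site, had 3129, 3691 and 4425 TMM-scaled CPM as lowest, median and highest value in standard OPCs and 3197, 3720.3 and 5058 in mild-hypo-OPCs. The ranges overlapped over most of their length, and the log2 fold change was 0.07 ± 0.11 (SE, adjusted p = 0.677). Mt-nd2 (ENSRNOG00000031033), a proton-pumping subunit, ran from 2788 over a median of 3092 to 3912 in standard OPCs and from 2916 over 3375 to 4713 in mild-hypo-OPCs. Its log2 fold change was 0.17 ± 0.12 (adjusted p = 0.343), and mild-hypo-OPC replicates 1 and 2 lay above all standard OPC libraries.

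Mt-nd4 (ENSRNOG00000029707), another proton-pumping subunit, had a lowest value of 3416, a median of 4032 and a highest value of 5694 in standard OPCs, and of 3840.2, 4364 and 6635 in mild-hypo-OPCs. Replicate 1 was the highest library of both groups, and the difference of 0.15 ± 0.14 did not pass the test (adjusted p = 0.464). For Mt-nd5 (ENSRNOG00000029971), the pumping subunit at the far end of the membrane arm, the values were 1437, 1852 and 2479 in standard OPCs and 1886, 2011 and 3285 in mild-hypo-OPCs. Its log2 fold change of 0.27 ± 0.14 was the highest of the 10 genes and did not pass the test (adjusted p = 0.175). Without standard OPC replicate 1, the highest of its group, it was 0.36 with adjusted p = 0.0439 and was called higher.

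Mt-nd6 (ENSRNOG00000029042) encodes a small membrane subunit of complex I and is read from the opposite strand of mtDNA to the other 9 genes. It was also the gene of the 10 with the fewest counts, from 25 to 660 in standard OPC libraries and from 128 to 539 in mild-hypo-OPC libraries. Standard OPC replicates 1 to 6 had 252, 194, 53.9, 23.0, 37.3 and 53.4 TMM-scaled CPM, and mild-hypo-OPC replicates 1 to 6 had 56.2, 45.1, 26.6, 26.2, 30.2 and 51.3. Replicates 1 and 2 of the standard OPCs stood above every other library, and the remaining 4 lay within or just below the mild-hypo-OPC range. The log2 fold change was -1.46 ± 0.40 (adjusted p = 0.0127), and it rested on those 2 libraries. Without standard OPC replicate 1 it was -0.94 (adjusted p = 0.0523), and without both it was -0.12 (adjusted p = 0.746). limma-voom gave -1.08 (adjusted p = 0.0715) and DESeq2 -1.38 (adjusted p = 0.0570). The libraries were made with a strand-specific kit, but whether the reads were counted by strand is not given in the sources used here, and without strand Mt-nd6 and RNA of the opposite strand cannot be told apart.

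Complex III passes electrons on to cytochrome c, and its mtDNA subunit is cytochrome b. Mt-cyb (ENSRNOG00000031766) ran from 5971 over 6503 to 7827 TMM-scaled CPM in standard OPCs and from 5404 over 6308 to 8138 in mild-hypo-OPCs. The mild-hypo-OPC range enclosed that of the standard OPCs, with a log2 fold change of -0.04 ± 0.11 (adjusted p = 0.828). ATP synthase takes Mt-atp6 (ENSRNOG00000031979), the subunit that forms the proton channel. Its values were 7466, 8061 and 9290.3 in standard OPCs and 6661, 7877 and 9537 in mild-hypo-OPCs, again with the standard OPCs inside the mild-hypo-OPC range, and the log2 fold change was -0.07 ± 0.10 (adjusted p = 0.679).

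Complex IV reduces oxygen to water, and its 3 mtDNA subunits form the catalytic core. Mt-co1 (ENSRNOG00000034234), which holds the oxygen-reducing site, had 24827, 25728 and 28416 TMM-scaled CPM in standard OPCs and 19524, 23661 and 27245 in mild-hypo-OPCs. Its log2 fold change of -0.16 ± 0.10 did not pass the test (adjusted p = 0.282), and 3 mild-hypo-OPC libraries (replicates 3, 4 and 5) lay below every standard OPC library. Mt-co2 (ENSRNOG00000030371), which accepts electrons from cytochrome c, had 6979, 7820.0 and 8150.0 in standard OPCs and 5321, 6367 and 7243 in mild-hypo-OPCs. The same 3 mild-hypo-OPC libraries and replicate 2 lay below all standard OPCs, and the groups overlapped by their edges. The log2 fold change was -0.28 ± 0.10 (adjusted p = 0.0414).

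Mt-co3 (ENSRNOG00000030700), the third core subunit, ran from 8151 over 9503 to 10221 TMM-scaled CPM in standard OPCs and from 6515 over 7597 to 8268 in mild-hypo-OPCs. Only standard OPC replicate 2 lay inside the mild-hypo-OPC range, and the log2 fold change was -0.32 ± 0.09 (adjusted p = 0.0188). The calls of Mt-co2 and Mt-co3 were close to the threshold. That of Mt-co3 was lost without mild-hypo-OPC replicate 3, 4 or 5 (adjusted p = 0.0669, 0.0688 and 0.0810). That of Mt-co2 was lost without mild-hypo-OPC replicate 2, 3, 4 or 5 (adjusted p = 0.0696, 0.13, 0.149 and 0.146) and without standard OPC replicate 4, 5 or 6 (0.0754, 0.0657 and 0.0818), and its log2 fold change stayed between -0.31 and -0.21.

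**Figure D2:**
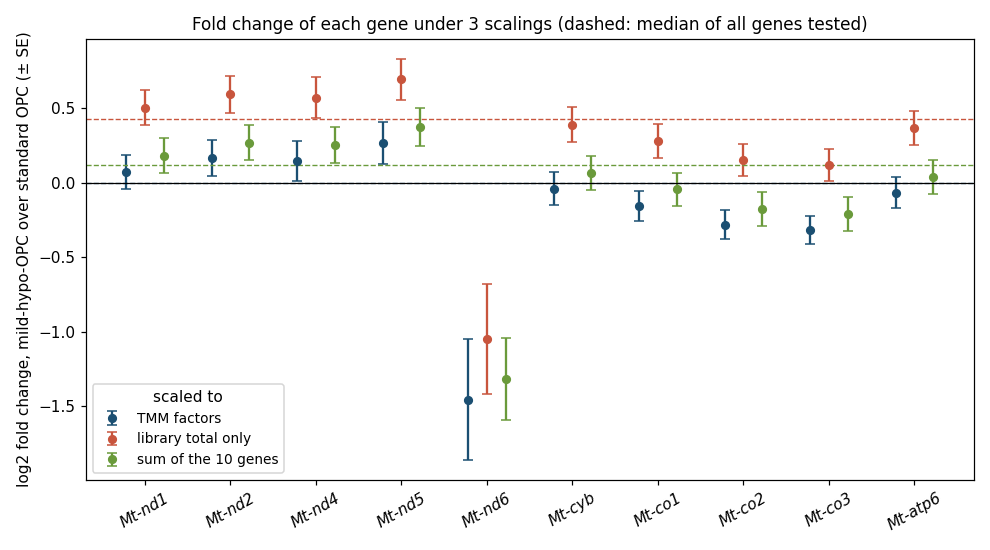
Log2 fold change of mild-hypo-OPCs over standard OPCs ± SE (vertical axis) for each of the 10 mtDNA genes, with TMM factors (blue), library totals alone (red) and the summed count of the 10 genes (green) as the scale; dashed lines give the median of all 8938 genes on each scale. The genes keep their order, since a change of scale shifts all of them nearly alike, and Mt-nd6 is negative on each.

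The remaining mtDNA rows of the table were read beside the 10 genes. Mt-nd3, a complex I subunit, had 1299.7, 1992 and 2231 TMM-scaled CPM in standard OPCs and 1019, 1204 and 1566 in mild-hypo-OPCs, and fell by 0.60 ± 0.13 on the log2 scale (adjusted p = 0.00291). It kept its call without any single library, with values from -0.68 to -0.52, and on library totals alone it was -0.15 (adjusted p = 0.299). Mt-nd4l, another complex I subunit, had a value of 0.21 (adjusted p = 0.241) and Mt-atp8, of ATP synthase, 0.02 (adjusted p = 0.923). Mt-nd4l overlaps Mt-nd4 on mtDNA and Mt-atp8 overlaps Mt-atp6, so reads of each pair are hard to divide, and nuclear copies of mtDNA can share reads with all of these genes. Of 24 mtDNA rows that carry only a clone name, 2 had counts. Both were lower in mild-hypo-OPCs, AY172581.9 by a log2 fold change of -0.59 (adjusted p = 0.000945) and AY172581.24 by -0.63 (adjusted p = 0.00274), and the files do not name the genes they stand for. On library totals alone neither was called (-0.15 and -0.19, adjusted p = 0.22 and 0.175), nor was either with replicates 1 to 3 only (adjusted p = 0.152 and 0.186).

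As a share of all counts, the 10 genes together took 5.38%, 5.91% and 7.38% (lowest, median and highest) in standard OPC libraries and 6.87%, 7.49% and 8.51% in mild-hypo-OPC libraries. The means were 6.08% ± 0.69 and 7.60% ± 0.76 (SD, n = 6 each), a difference of 1.51 percentage points. Standard OPC replicate 1 was the one library whose share reached into the mild-hypo-OPC range, and the other 5 lay below it. No test was run on this sum, since the genes had been chosen with results known.

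The share depended on what it was taken of. Without the ribosomal RNA rows it was 8.87% ± 0.66 in standard OPCs and 9.58% ± 1.20 in mild-hypo-OPCs, a difference of 0.71 points. Of protein-coding rows only, it was 10.8% ± 0.79 and 10.7% ± 1.3, a difference of -0.11 points, with each standard OPC library inside the mild-hypo-OPC range of 9.31% to 12.7%. The mild-hypo-OPC group had the larger share of the total and the smaller share of ribosomal RNA rows. Within it replicate 1 had the highest value of both (8.51% and 25.2%). Within the standard OPCs replicate 1 had the highest share (7.38%) and the lowest ribosomal RNA (23.9%). The part of ribosomal RNA in the share was not tested.

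**Figure D3:**
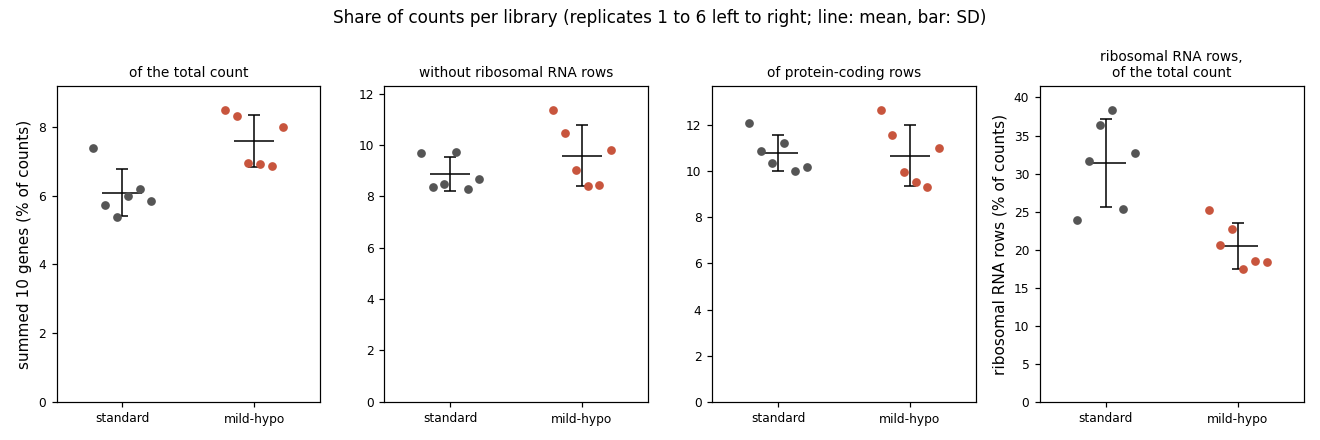
Percent of counts per library (vertical axes, from 0) taken by the 10 mtDNA genes together, of the total, of the total without ribosomal RNA rows and of protein-coding rows, and by the ribosomal RNA rows (right); points are replicates 1 to 6 from left to right, lines with bars are means ± SD (n = 6). Mild-hypo-OPCs (red) lie above all standard OPCs (grey) but replicate 1 in the first panel (7.60% against 6.08% on average) and overlap them fully in the third (10.7% against 10.8%).

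To compare the genes with each other free of the nuclear scale, the summed count of the 10 genes was used as the library size. Of all 8938 genes, 8.01% were called higher and 8.72% lower on that scale, and of the 10 genes 1 was higher and 1 lower. Mt-nd5 took 2.09%, 2.62% and 3.14% of the sum in standard OPCs and 2.85%, 3.31% and 4.10% in mild-hypo-OPCs. The ranges overlapped in their outer parts, and its log2 fold change against the sum was 0.37 ± 0.13 (adjusted p = 0.0358). The call was lost when any 1 of 8 libraries was left out, namely mild-hypo-OPC replicates 1, 2, 3 and 5 and standard OPC replicates 3, 4, 5 and 6 (adjusted p = 0.0541 to 0.103, log2 fold change 0.31 to 0.39).

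Mt-nd6 was lower against the sum (-1.32 ± 0.28, adjusted p = 0.000664) and again lost its call without standard OPC replicates 1 and 2 (-0.07, adjusted p = 0.796). The other complex I genes of the 10 had positive values, 0.18 for Mt-nd1, 0.27 for Mt-nd2 and 0.25 for Mt-nd4 (adjusted p = 0.279, 0.107 and 0.147). Mt-nd3, a complex I gene outside the 10, was called lower on this scale, with overlapping ranges (-0.49 ± 0.14, adjusted p = 0.0127). Mt-nd2 was the one gene of the 10 whose shares did not overlap, 4.06% to 4.96% of the sum in standard OPCs and 5.00% to 5.89% in mild-hypo-OPCs, whereas on this scale 3.09% of all genes had the mild-hypo-OPC libraries wholly above and 0.559% wholly below. Without standard OPC replicates 1 and 2, Mt-nd2, Mt-nd4 and Mt-nd5 were all called higher against the sum (0.35, 0.36 and 0.49, with adjusted p = 0.0364, 0.0276 and 0.00280), and Mt-nd6 was not called. In that fit, chosen after the data were seen, 9.58% of all genes tested were called higher and 13.4% lower. Standard OPC replicates 1 and 2 held the highest shares of Mt-nd2, Mt-nd4 and Mt-nd5 in their group. Leaving them out raises these values by construction, so the calls are no support for a rise.

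The complex IV genes had negative values against the sum. Since the 10 genes are scaled to their own total, positive values in some of them require negative values in others, and the signs are not independent. Mt-co3 took 13.2% ± 1.42 of the summed counts in standard OPCs and 11.4% ± 0.63 in mild-hypo-OPCs, Mt-co2 10.8% ± 0.75 and 9.56% ± 0.44, and Mt-co1 36.8% ± 0.998 and 35.7% ± 1.4 (SD, n = 6). The log2 fold changes against the sum were -0.21, -0.18 and -0.05, and none passed the test (adjusted p = 0.204, 0.282 and 0.796). Mt-cyb (0.06, adjusted p = 0.717) and Mt-atp6 (0.04, adjusted p = 0.831) had values near 0.

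The nuclear subunits of the same complexes gave larger differences than the mtDNA genes. Of 78 nuclear subunits of complexes I to V, 72 were tested, and 64 were lower in mild-hypo-OPCs with TMM scaling while 0 were higher, where 17.0% of all genes were lower. Their median log2 fold change was -0.69, beside -0.05 for the 10 mtDNA genes and -0.0031 for all genes. No nuclear subunit was higher at an unadjusted p under 0.05, nor with limma-voom or DESeq2. Every mild-hypo-OPC library lay below every standard OPC library in 22 of the 72 by TMM-scaled CPM (5.40% of all genes), against 0 of the 10 mtDNA genes. By CPM of the library total this held for 0 of the 72 (0.134% of all genes), with 2 wholly above (32.5%), and by share of the summed mtDNA genes for 4 (0.559%). When libraries were scaled by their totals alone, 30 of the 72 were lower and 4 higher, where 4.53% of all genes were lower and 61.7% higher. The median of the 72 was then -0.26 and that of all genes 0.43.

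Complex I had 29 of 34 tested nuclear subunits lower and a median of -0.71. The largest falls were those of Ndufa2 (-1.34 ± 0.18, adjusted p = 0.000143) and Ndufa6 (-1.23 ± 0.18, adjusted p = 0.000184), both accessory subunits. Of the 4 subunits of complex II, which has no mtDNA partner, 3 were lower, the iron-sulphur subunit Sdhb (-0.30, adjusted p = 0.0272) and the membrane anchors Sdhd (-0.57, adjusted p = 0.00726) and Sdhc (-0.33, adjusted p = 0.0320), and the median was -0.32. The call of Sdhc was lost when any 1 of 7 libraries was left out, namely mild-hypo-OPC replicates 1 to 5 and standard OPC replicates 5 and 6 (adjusted p = 0.0641 to 0.111).

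In complex III all 8 tested nuclear subunits were lower (median -0.55), with the largest falls in Uqcr10 (-1.21, adjusted p = 0.000234) and Uqcrq (-0.94, adjusted p = 0.000802), 2 small structural subunits. In complex IV all 11 were lower (median -0.86), led by Cox7a1 (-1.96 ± 0.48, adjusted p = 0.00605) and Cox7b (-1.43 ± 0.19, adjusted p = 0.000143). Cox7a1, the heart and muscle form of its subunit, had 2 to 187 counts in standard OPC libraries and was -1.21 without replicate 1 (adjusted p = 0.0489) and -0.11 without replicates 1 and 2 (adjusted p = 0.851), the libraries that also stood apart in Mt-nd6. Neither limma-voom nor DESeq2 called Cox7a1 (adjusted p = 0.0518 and 0.0548). In ATP synthase 13 of 15 were lower (median -0.63), with Atp5mg at -1.54 (adjusted p = 0.000131) and Atp5mk at -1.28 (adjusted p = 0.000213), both membrane-sector subunits.

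**Figure D4:**
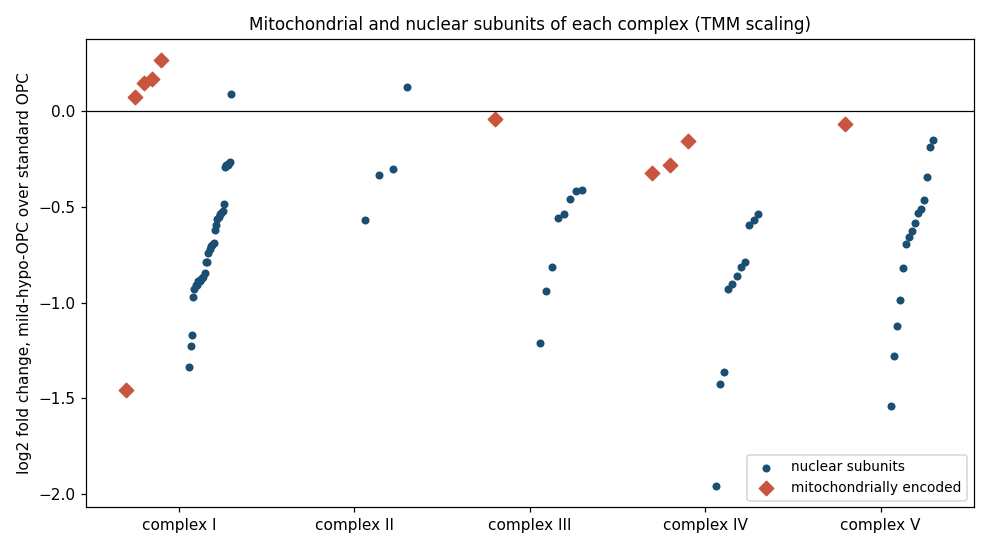
Log2 fold change of mild-hypo-OPCs over standard OPCs with TMM scaling (vertical axis) for the mtDNA genes (red diamonds) and the 72 tested nuclear subunits (blue points, in order of value) of each complex. Apart from Mt-nd6 at -1.46, the mtDNA genes lie between -0.32 and 0.27, and most nuclear subunits lie below them (median -0.69).

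Each nuclear subunit was also tested on the scale of the summed mtDNA genes, which does not depend on nuclear scaling. Against that sum 49 of the 72 were lower and 0 were higher (0 also at an unadjusted p under 0.05), where 8.72% of all genes were lower, with a median of -0.58 beside 0.12 for all genes. The lists had been chosen with results known, so these counts describe them and are not a test of one genome against the other. By complex, 24 of 34 in complex I, 1 of 4 in complex II, 4 of 8 in complex III, 11 of 11 in complex IV and 9 of 15 in ATP synthase were lower. The count ran from 40 to 59 when each library was left out in turn. Lower values of nuclear genes went with short genes: across 8544 genes with a known span the Spearman rho of log2 fold change with span was 0.30, a description across genes, which are not independent, and the nuclear subunits had a median span of 7179.5 bp beside 25568.5 bp for all genes tested. The mtDNA genes had no span in the table used, and the part of gene length in the contrast was not tested.

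Counts of mtDNA genes per count of the tested nuclear subunits were also taken in each library, and the groups differed on average but overlapped. For complexes I, III, IV and V together there were 5.60, 6.92 and 10.4 mtDNA counts per nuclear count in standard OPCs (lowest, median and highest) and 8.89, 9.43 and 14.4 in mild-hypo-OPCs. The means were 7.41 ± 1.88 and 10.5 ± 2.15 (SD, n = 6), 1.41-fold apart, and of the standard OPCs only replicate 1 lay inside the mild-hypo-OPC range.

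Complex I showed 4.49 ± 1.72 mtDNA counts per nuclear count in standard OPCs and 7.61 ± 2.28 in mild-hypo-OPCs, 1.70-fold apart. The ratio was 1.48-fold apart in complex III (6.36 and 9.41), 1.51-fold in complex IV (24.0 and 36.1) and 1.34-fold in ATP synthase (2.19 and 2.93), and the ranges overlapped in all 4 complexes. Replicate 1 gave the highest ratio of its group in each complex in both groups, and it was also the library with the highest total count of its group. The levels of the complexes cannot be compared with each other, since counts were not divided by gene length.

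**Figure D5:**
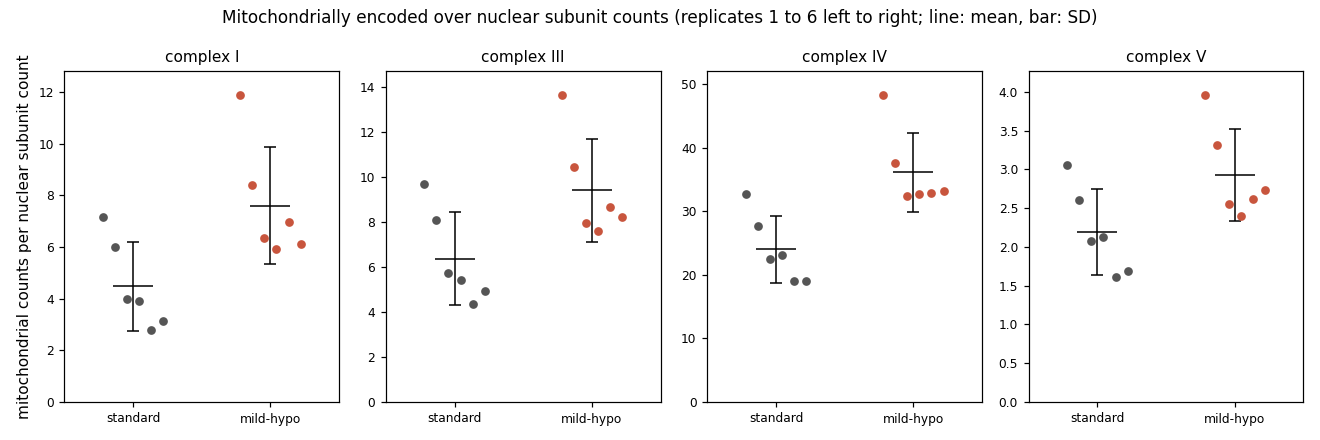
Summed counts of the mtDNA genes per summed count of the tested nuclear subunits of the same complex (vertical axes, from 0) in each library; points are replicates 1 to 6 from left to right, with standard OPCs in grey and mild-hypo-OPCs in red, and lines with bars are means ± SD (n = 6). The mean is 1.34-fold to 1.70-fold higher in mild-hypo-OPCs, and the groups overlap through replicate 1 of the standard OPCs and, outside complex IV, replicate 2.

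Of 31 tested nuclear factors that act on mtDNA and its RNA, 5 were lower, a share near the 17.0% of all genes, and 0 were higher with TMM scaling (1, the helicase gene Twnk, was higher at an unadjusted p under 0.05, and limma-voom and DESeq2 called 0), and the median was -0.06. Among 10 transcription and replication factors, 3 were lower, including Tfam, which packages mtDNA and starts its transcription (-0.62 ± 0.14, adjusted p = 0.00266), and Mterf2, a member of the mitochondrial transcription termination factor family (-1.29 ± 0.38, adjusted p = 0.0174). The other was Mterf3 of the same family (-0.49, adjusted p = 0.0157). Mterf2 lost its call without standard OPC replicate 1 or 2 (adjusted p = 0.0649 and 0.0589). With both left out it did not pass the filter on low counts and was not tested. Mterf2 was thus tested only through libraries of the group in which it was high, and its call is a description. Polrmt, the mitochondrial RNA polymerase, had a value of 0.37 (adjusted p = 0.286).

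Among 16 factors of mitochondrial RNA processing and stability 2 were lower. These were Slirp, which binds mitochondrial messages together with Lrpprc (-0.99 ± 0.20, adjusted p = 0.00132), and Hsd17b10, a subunit of mitochondrial RNase P (-0.67 ± 0.16, adjusted p = 0.00405). Lrpprc itself had a value of 0.19 (adjusted p = 0.277). None of 5 tested regulators of mitochondrial biogenesis was called in either direction (0 at an unadjusted p under 0.05, and 0 with limma-voom or DESeq2), with values from -0.06 for Nrf1 to 0.05 for Pprc1. On library totals alone 15 of the 31 factors were called higher and 2 lower, where 61.7% of all genes were higher. Tfam (-0.19, adjusted p = 0.245) and Hsd17b10 (-0.23, adjusted p = 0.175) were not called on that scale. Slirp and Mterf2 were (adjusted p = 0.0122 and 0.0455). With replicates 1 to 3 only, Tfam, Slirp and Hsd17b10 were not called (adjusted p = 0.168, 0.0568 and 0.154).

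Across the 12 libraries, with each group centred on its mean, most of the 10 genes varied together. The Pearson r of TMM-scaled log2 CPM with the mean of the other genes was 0.96 for Mt-cyb, 0.95 for Mt-nd4, 0.94 for Mt-nd1 and Mt-nd2, 0.86 for Mt-nd5 and 0.85 for Mt-atp6. It was lower for Mt-co1 (0.67), Mt-nd6 (0.55), Mt-co2 (0.48) and Mt-co3 (0.12), and it was -0.32 for Mt-nd3. These values are descriptions over 12 libraries that share scaling factors and differ in depth.

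Among 8923 genes outside mtDNA, those most like the mean of the 10 over the 12 libraries were Rere (r = 0.84), Septin3 (0.83), Ahdc1 (0.82), Rbl2 (0.80) and Me1 (0.80). After centring each group they were Vamp2 (0.91), Ahdc1 (0.88), Mgat5, Ttll5 and Rere (0.85 each).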

How the data were processed

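The authors trimmed reads with Trimmomatic 0.36, checked them with FastQC 0.11.9, aligned them to the mRatBN7.2 genome with STAR 2.7.9a and estimated gene counts with RSEM 1.3.3 (versions from the submitters' processing notes and the study's methods). The deposited values are whole-number counts per Ensembl gene for 12 libraries without normalization, and how RSEM estimates became whole is not given in the sources used here. Of the columns, 0 were unused.

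Genes above 10 CPM in at least 1 library were kept (8938 of 30562). TMM factors and edgeR 4.0.16 quasi-likelihood tests over all kept genes were run in R 4.3.3 with condition as the only term and adjusted p under 0.05. SEs are those implied by the F statistic. Correlations used log2 CPM with a prior count of 2. limma 3.58.1 (voom, the study's tool) and DESeq2 1.42.0 served as alternatives, beside other scalings, filters, depths and subsets of libraries. Figures were drawn with matplotlib in Python 3.11.15. The test was checked on simulated counts. Pairs of libraries of 1 group differed by more than sampling noise (chi-square per degree of freedom 3.97 to 27.2), so none was taken as a repeat deposit.

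The mtDNA genes and all gene lists were chosen with earlier results of these data known. Named genes were the 10 members, the other mtDNA rows, the 2 called genes with the largest rise and fall of each list, and the 5 most correlated genes by 2 measures. Mterf3, Twnk, Sdhb, Polrmt, Lrpprc, Nrf1 and Pprc1 were named after their values were seen. A RefSeq table of GRCr8, matched by symbol, gave gene spans and biotypes. No sequence, coordinate or coding length of the mtDNA genes was used here, so the planned levels per coding length were not computed. Mitochondrial ribosomal RNAs were not analysed by name, and whether the 2 clone-named mtDNA rows with counts stand for them was not settled. Thinned to the smallest total, the SE of Mt-co1, the gene of the 10 with the most counts, was 0.107 against 0.101. This value does not speak for genes with few counts. The SE of Mterf2 was 0.486 against 0.377, and its call was lost, while that of Atp5mg was 0.177 against 0.199.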

Additional observations from a re-analysis of the deposited data

Results flagged for a closer look

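Among 58 sets of 6 libraries examined for a library far from the others (Dixon's 95% rule on the gap to the nearest library), 2 were picked out, and chance alone picks about 1 in 20. The count of complex IV mtDNA genes per count of nuclear complex IV subunits was 48.2 in mild-hypo-OPC replicate 1, whereas the other 5 mild-hypo-OPC libraries lay from 32.3 to 37.5, and the gap made up 0.673 of the range of the group. Mt-atp8 was at 3017 TMM-scaled CPM in standard OPC replicate 1, with the other 5 standard OPC libraries from 2237 to 2402 and a gap of 0.789 of the range. Both libraries had the highest total count of their group, and the part of depth was not tested for these values.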

How the results depend on the processing

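Scaling and depth set the limits here, since total counts of the groups do not overlap. With library totals alone, 7 of the 10 genes were higher and 1 lower (median 0.38), 4 nuclear subunits were higher and 30 lower, and 17 mitochondrial gene expression factors were called, 15 of them higher. Of all genes, 61.7% were higher and 4.53% lower on that scale. On that scale the signs turned for Mt-atp6 (0.37), Mt-co1 (0.28), Mt-co2 (0.15), Mt-co3 (0.12), Mt-cyb (0.39) and Sdhc (0.11). With log2 total count as a covariate, 0 of all genes were higher and 43 lower, 1 of the 10 genes (Mt-nd6) was lower (median -0.45), 1 nuclear subunit was lower and 0 factors were called, and signs turned for Hsd17b10 (0.23), Mt-atp8 (-0.46), Mt-nd1 (-0.45), Mt-nd2 (-0.46), Mt-nd4 (-0.64), Mt-nd4l (-0.56), Mt-nd5 (-0.58), Ndufa6 (0.010), Sdhc (0.22), Sdhd (0.20), Slirp (0.18) and Uqcrq (0.25). The covariate is nearly the condition itself, and the cause of these turns was not tested. Thinned to the smallest total, 385 genes were higher and 1176 lower against 626 and 1520, and 1 factor was higher.

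Over 27 alternatives the lower call was lost for Mt-co2 in 17, for Mt-co3 in 9 and for Mt-nd6 in 5. The number of the 10 genes called lower was 1 with no filter, with upper-quartile factors and with replicates 1 to 3 only, and 1 higher and 1 lower when scaled to their sum. With upper-quartile factors Mt-atp6 was 0.0027 and Mt-cyb 0.029, and scaled to the sum they were 0.039 and 0.065. With replicates 1 to 3 only, Mt-atp6 was 0.024 and Mt-cyb 0.037, 27 nuclear subunits were lower, 1 factor was called, and 53 of all genes were higher and 343 lower. With replicates 4 to 6 only, 1 factor was higher and signs turned for Cox7a1 (0.48) and Mt-atp8 (-0.017). The share of counts differed by -0.11 points of protein-coding rows and by 0.71 points without ribosomal RNA rows.

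Replicate numbers gave no consistent pairing of the libraries (r of same-numbered deviations -0.28 to 0.30). Only replicate 1 had its highest r with its own number, and barely (0.296 against 0.295). In mtDNA counts per nuclear count, however, replicates 1 and 2 were the highest of both groups in each complex with mtDNA genes. Pairing for these genes was not tested. With the replicate block 1 of the 10 genes was higher (Mt-nd5, 0.26, adjusted p = 0.0462) and 2 lower. Leaving out 1 library at a time gave 0 to 1 of the 10 genes higher and 1 to 3 lower, 0 to 1 higher against their sum, and 0 to 1 factors higher. Without standard OPC replicates 1 and 2, an alternative chosen after seeing the data, 1 gene was higher (Mt-nd5) and Mt-cyb turned to 0.048, and against the sum 3 were higher and 0 lower. The libraries left out were the highest standard OPC libraries for these genes, which raises the values by construction. Leaving out 1 library at a time also moved Mt-atp6 between -0.097 and 0.0068, Mt-atp8 between -0.028 and 0.095 and Mt-cyb between -0.086 and 0.033, and none of these passed the test.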
